A study of Mus musculus with 2 samples.

Results

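The genes of the cytosolic ribosomal proteins were examined in scRNA-seq data from mouse fracture calluses. Members were taken by symbol, as Rpl and Rps genes together with Rplp0, Rplp1, Rplp2 and Rpsa, without Rps6k kinases and without Gm or -ps pseudogene entries. The rule found 83 of the 32285 genes in the files, 51 of the large and 32 of the small subunit. In both libraries 82 of these 83 members had at least 1 unique molecular identifier (UMI, the tag that counts a captured transcript). Rpl10l, a testis-expressed relative of Rpl10, had 0 UMIs in each.

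The calluses came from wild-type male C57BL/6J mice, 12 weeks old, with a needle-stabilised fracture of the mid-femur and no other treatment in the labels. The design text gives callus from 5 mice at 10 days and 5 mice at 20 days post-fracture (dpf), which stand in 2 libraries loaded for a target of 5000 cells, so the mice of a library cannot be told apart. The labels of the libraries, MGJ and MGJ2, give neither a day, so both stood without a group, were described side by side and were never compared as time points. With 1 library of each kind no test was possible, and every interval here is an exact 95% interval that covers counting error only.

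The ribosome joins a small subunit, which reads the mRNA, with a large subunit, which forms the peptide bond. Rplp0, Rplp1 and Rplp2 build the stalk that recruits elongation factors, and Rpsa, also known as a laminin receptor, is a protein of the small subunit. Most of these mRNAs begin with a short pyrimidine run, the 5′ terminal oligopyrimidine (TOP) motif, through which mTOR signalling and the binding protein LARP1 control their translation. Cells that grow, divide or secrete usually hold many ribosomes, whereas neutrophils stop dividing and reduce their biosynthesis as they mature.

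The deposited matrices held 14295 barcodes with 135304426 UMIs in MGJ and 8009 barcodes with 61130834 UMIs in MGJ2, and 19 barcode sequences occurred in both. After the limits of at least 200 genes and at most 20% mitochondrial UMIs and the removal of doublet calls, 12972 and 7583 cells were kept, with median counts of 5538 and 4930 UMIs. Joint clustering, with the members held out of the variable genes, gave 24 clusters, which were named from marker genes. This left 16 classes of at least 50 cells in MGJ and 12 in MGJ2, and 11 of them were found in both. Of the 24 clusters, 13 drew more than 90% of their cells from 1 library. Mature neutrophil-like cells came mainly from clusters 1 and 2 in MGJ and from cluster 0 in MGJ2, and monocyte-like cells from cluster 13 in MGJ and from clusters 5 and 12 in MGJ2. No osteoclast-like class could be named. A sub-cluster of the macrophage-like cells, 145 cells in MGJ and 62 in MGJ2, had Ctsk and Mmp9 among its leading genes. It held too few listed osteoclast markers for the name and was set aside. Transcripts of the cartilage collagen gene Col2a1 were found in 76.8% to 96.8% of the cells of each class other than chondrocyte-like and osteoblast-like cells in MGJ and in 16% to 35.8% in MGJ2. The level was 56093 counts per 1000000 UMIs (CPM) in chondrocyte-like cells of MGJ and 45078 in those of MGJ2.

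Over all kept cells the members made up 16.2% of 125900501 UMIs in MGJ and 18.4% of 58050170 UMIs in MGJ2. Genes of the large subunit held 9.03% and 9.88% of all UMIs, and genes of the small subunit 7.18% and 8.54%. The median member stood at 1861 CPM in MGJ and at 2206 CPM in MGJ2, with quartiles of 1323 and 2444 CPM and of 1546 and 2777 CPM. Levels above 1000 CPM were found for 70 and 73 of the 83 members, and the 10 most abundant members held 22.6% and 22.3% of member UMIs. These 3′ UMI counts give 1 tag per transcript and need no scaling by length, although near-identical pseudogenes can take part of a member's reads and make levels between members uncertain.

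Among the most abundant members in MGJ were Rplp1 with 4483 CPM, Rps24 with 3811, Rpl41 with 3728 and Rpl23 with 3695 CPM. In MGJ2 the leading members were Rps29 with 4927 CPM, Rps24 with 4764, Rplp1 with 4316, Rpl37a with 4221 and Rpl41 with 4133 CPM. Of the stalk genes, Rplp0 stood at 3563 and 2831 CPM and Rplp2 at 1702 and 2866 CPM, and Rpsa at 2767 and 2847 CPM. The low end was made up of relatives of other members. Rpl3l, a striated-muscle relative of Rpl3, stood at 1.06 and 3.0 CPM, Rpl7l1 at 52.2 and 52.3 CPM, Rpl39l at 63.7 and 6.68 CPM, and Rps27l at 398 and 389 CPM. For Rpl10l the upper interval limits were 0.0293 and 0.0635 CPM.

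The TOP motif was looked for at the RefSeq gene starts on GRCm38.p6 as a C followed by an unbroken run of C or T letters, at least 5 letters in all, read on the strand of the gene and starting from 5 bases before to 5 bases after the annotated start. Of the 83 members 63 were in the promoter table, and 29 of these (46.0%) had such a run at 1 or more starts, beside 21.2% of 27025 genes in the whole table. Counted by promoters, it was 31 of 75 (41.3%) for members and 18.3% for all promoters. Windows of 30 bases, of which the 11th is the annotated start, are given for members that led the order or changed most between classes, with the run in capitals.
Rps24 (chr14:24490668-24490697, plus strand): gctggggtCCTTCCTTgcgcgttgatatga
Rps27 (chr3:90213629-90213658, minus strand): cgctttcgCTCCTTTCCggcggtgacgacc
Rpl22l1 (chr3:28805498-28805527, plus strand): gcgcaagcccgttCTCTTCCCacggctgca
Rps27l (chr9:66946076-66946105, plus strand): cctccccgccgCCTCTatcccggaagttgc
Rpl39 (chrX:37085203-37085232, minus strand): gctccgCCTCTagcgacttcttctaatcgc
Rpl39l (chr16:10170218-10170247, plus strand): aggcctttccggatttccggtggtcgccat
Rpl7l1 (chr17:46782637-46782666, minus strand): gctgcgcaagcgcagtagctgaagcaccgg
Rplp0 (chr5:115559457-115559486, plus strand): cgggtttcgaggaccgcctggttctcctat
Rps24 and Rps27, both high in lymphoid cells, carried runs of 8 and 9 letters from 2 bases before the annotated start. Rpl22l1 carried a run of 8 letters and Rps27l of 5 letters at the start shown. For Rpl39l, Rpl7l1, Rplp0, Rpl41 and Rpl37a no such run started between 5 bases before and 5 bases after the annotated start, although pyrimidine stretches outside these limits can be read in the windows of Rpl39l and Rplp0. An annotated start need not be the base at which transcription begins in these cells, so a start without a run says nothing about the transcript.

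The share of UMIs held by the members differed widely between cell classes. In MGJ it ran from 3.12% in mature neutrophil-like cells (4242 cells) to 30.3% in NK cell-like cells (69 cells), and in MGJ2 from 2.87% in mature neutrophil-like (1556 cells) to 29.2% in T cell-like cells (800 cells). Lymphoid classes and myeloid progenitors stood high, stromal and vascular classes in the middle, and granulocytes at the bottom. Over the 11 classes found in both libraries the order was alike, with a Spearman correlation of 0.827 given as a description, since all classes of a library share its depth and free RNA.

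Among the blood-forming and lymphoid classes, myeloid progenitor-like cells had 27.1% in MGJ (171 cells) and 27.0% in MGJ2 (332 cells). T cell-like cells had 26.8% (212 cells) and 29.2%, B cell-like cells 27.7% (82 cells) and 23.9% (552 cells), NK cell-like cells 30.3% and 22.5% (686 cells), and pre-B cell-like cells 26.1% (214 cells) and 20.7% (346 cells). Conventional dendritic-like cells stood at 19.5% (82 cells) and 23.5% (354 cells), and monocyte-like cells at 13% (854 cells) and 17.0% (1617 cells). NK, B and pre-B cell-like cells were thus lower in MGJ2 and dendritic-like cells higher, each by more than the counting error, while the spread between animals is unknown. Monocyte-like cells had no set direction. Cluster 13, found mainly in MGJ, had 11.9% (661 cells), whereas the clusters present in both libraries stood lower in MGJ2, at 18.2% and 16.8% in cluster 5 (118 and 1003 cells) and at 18.3% and 17.4% in cluster 12 (75 and 605 cells). Monocyte-like cells of MGJ stood at 18.3% with at least 500 genes per barcode, 16.5% at resolution 0.5 and 16.2% at resolution 2. With that minimum of 500 genes, after which the clusters were drawn anew, the class named myeloid progenitor-like stood at 14.3% and 17.0%.

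Among the cells of cartilage, bone and vessels, the share in MGJ was 20.8% in osteoblast-like (114 cells), 18.4% in chondrocyte-like (2466 cells), 18.3% in endothelial-like (261 cells), 17.6% in fibroblast-like (1521 cells) and 17.0% in mural-like cells (137 cells). Macrophage-like cells had 12.4% (847 cells). Cluster 9, with Atp6v0d2 and Acp5 among its leading genes, also held unnamed cells. These had 17.5% in MGJ (297 cells) and 25.8% in MGJ2 (59 cells). In MGJ2 the share was 16.9% in chondrocyte-like (140 cells), 14.4% in endothelial-like (69 cells) and 18.2% in mast cell or basophil-like cells (75 cells). A cluster in MGJ that held 71 erythroid-like cells had a summed share of 9.30%, but its median cell had 1.32%, and 20 other genes held 54.4% of its UMIs.

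**Figure D1:**
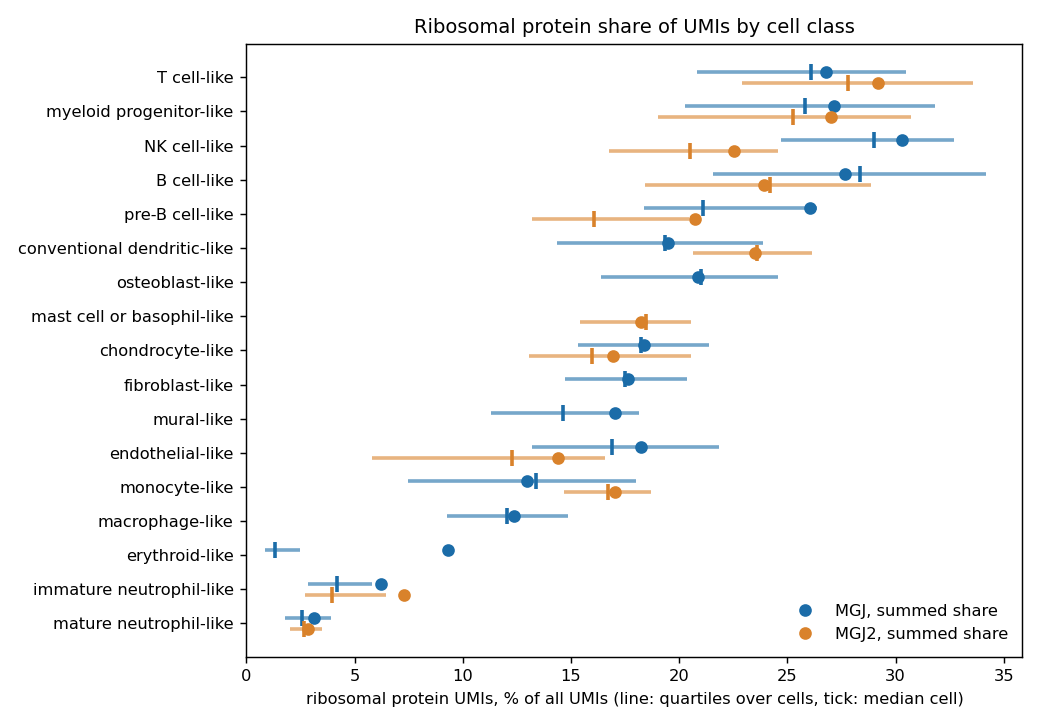
Share of UMIs (percent) held by cytosolic ribosomal protein genes in each named class of at least 50 cells, library MGJ in blue and MGJ2 in orange. Dots show the summed share, lines the quartiles over cells and ticks the median cell; mature neutrophil-like cells are lowest in both libraries, at 3.12% and 2.87%.

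Chondrocyte-like cells, the cells the study was about, did not stand at either end. They were at place 8 of 16 classes in MGJ and at place 9 of 12 in MGJ2, counted from the highest share. Against all other cells together their share was 1.25 times as high in MGJ (18.4% against 14.7%, interval 1.2477 to 1.2499) and 0.914 times in MGJ2 (16.9% against 18.5%, interval 0.912 to 0.916). With neutrophil clusters left out it was 1.08 and 0.768, with stromal and vascular cells only 1.03 and 1.14, and with every cell weighted equally 1.79 and 1.11, so it stayed above 1 in MGJ and turned in MGJ2. The median chondrocyte-like cell held 3850 member UMIs in MGJ and 4301 in MGJ2, beside 614 and 851 over all kept cells, and its total UMIs were likewise high, at 21074.5 and 27371.5 beside 5538 and 4930.

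Gene by gene, few members passed the fold between chondrocyte-like and other cells. Most lay on 1 side, with 77 of 82 above a ratio of 1 in MGJ and 55 of 82 below 1 in MGJ2. In MGJ 2 of 82 members were higher past 1.5 fold and 1 was lower, where 21.6% of all 14649 genes tested were higher and 35.9% lower. In MGJ2 it was 2 higher and 4 lower, beside 26.2% and 42.6% of 13065 genes. The median log2 ratio of the members was 0.35 in MGJ and -0.13 in MGJ2, and that of all genes -0.19 and -0.33. Rpl39l was higher in both libraries, at 3.78-fold (111.9 against 29.6 CPM) in MGJ and 21.2-fold (59.2 against 2.79 CPM) in MGJ2. Rpl3l was lower in both, with 2 UMIs against 132 in MGJ (ratio 0.0214, interval 0.00257 to 0.0789) and 1 against 173 in MGJ2 (ratio 0.0781, interval 0.00197 to 0.441). This low level was not particular to chondrocyte-like cells. Mature neutrophil-like cells held 81 of its 134 UMIs in MGJ and 88 of 174 in MGJ2. In MGJ osteoblast-like, endothelial-like and mural-like cells had 0, and fibroblast-like cells had 9. Rpl38 passed the fold only in MGJ (1.53-fold higher, beside 1.08 in MGJ2). Rpl22l1 (1.73-fold higher), Rps9 (ratio 0.609), Rps29 (0.619) and Rps27 (0.621) passed it only in MGJ2. The difference between libraries was not tested.

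Within the chondrocyte-like cells, a sub-cluster was called hypertrophic-like by its mean over Col10a1, Ihh, Panx3, Pth1r and Mmp13, genes of cartilage hypertrophy. These genes need not all be high in it. Its cells had a share of 16.3% in MGJ (611 cells) beside 19.0% in the other 1855 cells. In MGJ2 the shares were 16.8% (83 cells) and 17.1% (57 cells). The other cells were a different mixture in each library. In MGJ they held 445 cells of a sub-cluster led by Nos2 and 113 of one with Top2a and Mki67 among its leading genes. In MGJ2 these sub-clusters had 0 and 3 cells. In MGJ 71 of the 81 members tested lay below a ratio of 1 and 49 in MGJ2, but few passed the fold. In MGJ 0 were higher and 3 lower past 1.5 fold, beside 15.9% and 19.5% of all genes. These 3 were Rpl3 (966 against 1606 CPM, ratio 0.602), Rpl12 (1519 against 2452, 0.619) and Rpsa (2237 against 3454, 0.648). In MGJ2 1 was higher and 1 lower, beside 17.4% and 17.5% of all genes, namely Rpl39l (76.0 against 35.6 CPM, ratio 2.14) and Rpl7l1 (ratio 0.638). Rpl3, Rpl12 and Rpsa stood at 0.742, 0.703 and 0.742 there. Median log2 ratios of the members were -0.24 and -0.05, and those of all genes -0.05 and -0.01. No member passed the fold in both libraries.

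The widest range was found along the granulocytic classes, from myeloid progenitor-like cells (Mpo, Elane, Prtn3) through immature neutrophil-like cells (Ltf, Ngp, Camp) to mature neutrophil-like cells (Cxcr2, Csf3r, Retnlg). The summed share was 27.1%, 6.21% and 3.12% in MGJ and 27.0%, 7.31% and 2.87% in MGJ2. In immature neutrophil-like cells the sum lay above the third quartile of the cells, whose median was 4.19% (quartile 5.79%) in MGJ and 3.98% (quartile 6.47%) in MGJ2, beside 2.55% and 2.68% in the median mature cell. With at least 500 genes per barcode, clusters were drawn anew. The progenitor-like, immature and mature classes then stood at 14.3%, 4.42% and 4.01% in MGJ and at 17.0%, 4.52% and 3.06% in MGJ2. In the median cell the number of member UMIs was 3553, 263 and 46 in MGJ and 5497.5, 345.5 and 57 in MGJ2. Between progenitor-like and immature cells the median cell's member UMIs differed 13.5-fold in MGJ and 15.9-fold in MGJ2, while all its other UMIs differed 1.71-fold and 2.11-fold. Between immature and mature cells the folds were 5.72 and 6.06 for members and 3.68 and 3.97 for other UMIs. In the median cell of the classes as first drawn, both the total RNA captured and the members' part of it were therefore lower at each step, and the members differed more. With at least 500 genes per barcode the summed shares of immature and mature cells of MGJ were close, at 4.42% and 4.01%.

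A share falls when a few other genes are high. The 20 most abundant non-member genes held 53.2% and 44.4% of UMIs in immature neutrophil-like cells and 44.1% and 28.4% in mature ones. With these 20 genes left out of the total the shares were 31.9%, 13.3% and 5.57% in MGJ and 30.9%, 13.1% and 4.0% in MGJ2, in the same order. A further cluster led by Retnlg, Cxcr2 and Mmp8, which was left unnamed because its leading genes held more markers of another class than of its own, had 2.12% (280 cells) and 1.94% (387 cells). Col2a1 stood at 931 CPM in mature neutrophil-like cells of MGJ and at 106 CPM in those of MGJ2, and these cells held 33.5 member UMIs per Col2a1 UMI in MGJ, where chondrocyte-like cells held 3.27. What part of the low member counts came from free RNA was not tested.

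Between immature neutrophil-like and myeloid progenitor-like cells all 80 members tested were lower past 1.5 fold in MGJ and likewise in MGJ2, and 0 were higher. Of all genes 60.5% were lower and 11.7% higher in MGJ, and 59.0% and 12.1% in MGJ2. The members' log2 ratios ran from -3.13 to -1.14 around a median of -2.18 in MGJ, and from -2.66 to -1.14 around -1.94 in MGJ2, where the medians of all genes were -0.91 and -0.86. Rpl10a differed most, from 2772 to 318 CPM in MGJ (ratio 0.115) and from 2468 to 391 CPM in MGJ2 (0.158). Rps9 differed least, from 4481 to 2034 CPM (0.454) and from 4076 to 1855 CPM (0.455). Rps27 was also among the least changed, at 0.371 and 0.412, so the step ran through both subunits but not evenly.

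Between mature and immature neutrophil-like cells 66 of 81 members were lower past 1.5 fold and 3 higher in MGJ, beside 35.3% and 32.2% of all genes. In MGJ2 72 of 81 were lower and 2 higher, beside 51.4% and 25.5%. Median log2 ratios were -1.12 and -1.63 for members and -0.07 and -0.64 for all genes, and 64 members were lower in both libraries. All these ratios compare summed counts, and the summed share of immature cells lay above the third quartile of its cells in both libraries. Rpsa went from 1209 to 237 CPM in MGJ (ratio 0.196) and from 1338 to 102 CPM in MGJ2 (0.0762). Rps4x, the X-linked gene of a small subunit protein, went from 768 to 137 CPM (0.179) and from 873 to 88.6 CPM (0.101). Rps18 went from 762 to 211 CPM in MGJ and from 882 to 76.1 CPM in MGJ2.

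Only Rps27 and Rpl3l were higher past 1.5 fold in mature than in immature neutrophil-like cells of both libraries. Rps27, which encodes a small zinc-finger protein of the small subunit, went from 889 to 1335 CPM in MGJ (1.5-fold) and from 1332 to 2221 CPM in MGJ2 (1.67-fold). In MGJ it lay just past the fold, and the interval reached from 1.44 to 1.56. Rpl3l had 81 UMIs against 8 in MGJ and 88 against 17 in MGJ2 (4.59-fold and 9.31-fold), at levels of 9.69 and 25.6 CPM in the mature cells. Rps27l, the relative of Rps27, went in opposite directions, from 62.5 to 109.2 CPM in MGJ (1.75-fold) and from 94.5 to 61.6 CPM in MGJ2 (ratio 0.652).

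**Figure D2:**
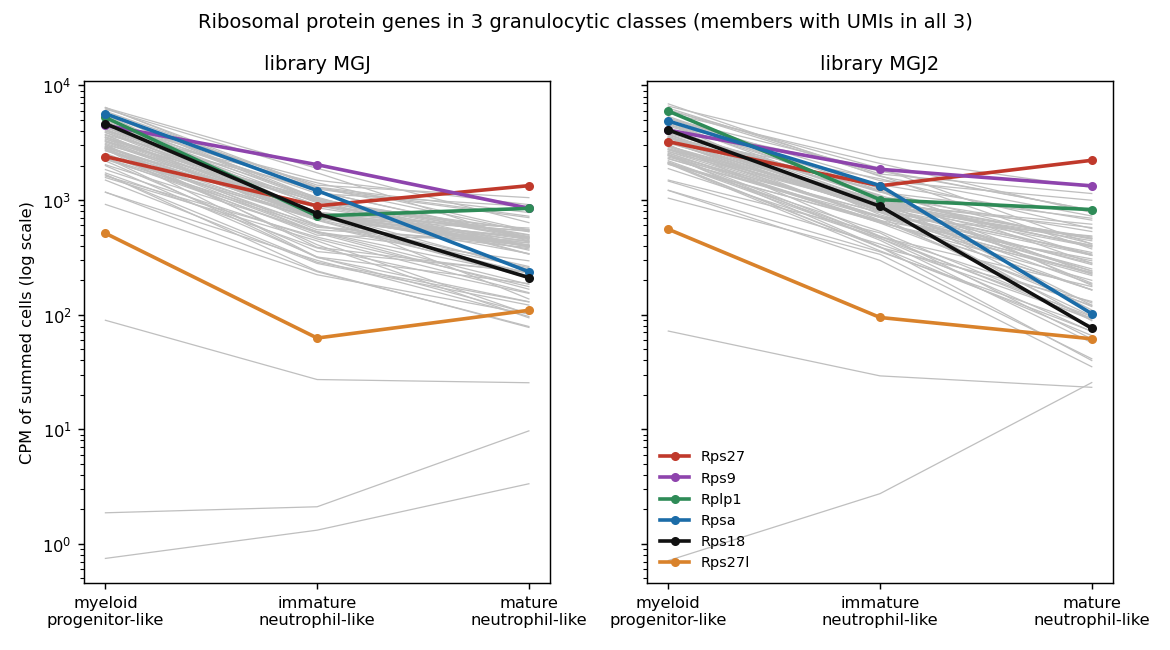
Level in CPM (log axis) of each member in myeloid progenitor-like, immature neutrophil-like and mature neutrophil-like cells, 1 panel for each library, with Rps27, Rps9, Rplp1, Rpsa, Rps18 and Rps27l in colour and other members in grey. Most lines are lower at each step, while Rps27 is higher in mature than in immature cells, from 889 to 1335 CPM in MGJ and from 1332 to 2221 CPM in MGJ2.

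In the B lineage few members passed the fold between the summed counts of pre-B cell-like and B cell-like cells. In MGJ 1 of 80 members was higher past 1.5 fold and 2 lower, beside 29.7% and 13.5% of all genes, and in MGJ2 2 were higher and 5 lower, beside 28.9% and 20.0%. Rps27l, a p53-induced relative of Rps27, was higher in pre-B cell-like cells of both libraries, with 362 against 151 CPM in MGJ (2.41-fold) and 470 against 183 CPM in MGJ2 (2.56-fold). Rps27 itself was lower in both, with 3682 against 6132 CPM (ratio 0.601) and 3695 against 8717 CPM (0.424). The remaining calls came from 1 library each. In MGJ Rpl7l1 was lower (0.663). In MGJ2 Rpl28 was higher (1.52-fold) and Rpl12 (0.584), Rps24 (0.618), Rps21 (0.639) and Rpl37a (0.643) were lower. Median log2 ratios were -0.06 and -0.15 for members and 0.18 and 0.09 for all genes. Cell by cell the gap was wider. The median pre-B cell-like cell had a share of 21.1% in MGJ and 16.1% in MGJ2, beside 28.4% and 24.2% in the median B cell-like cell. In MGJ2 the summed pre-B cell-like share of 20.7% lay above the third quartile of its cells (20.5%).

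**Figure D3:**
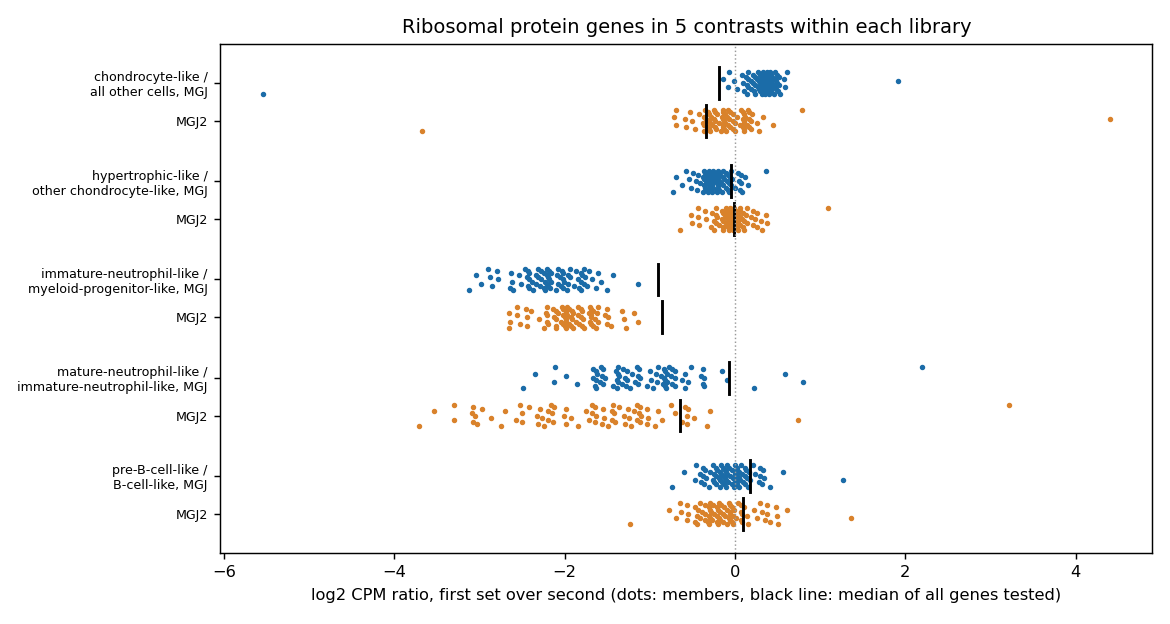
Log2 CPM ratio of each member in 5 contrasts between cell classes, with MGJ and MGJ2 side by side, 1 dot for each member and a black line at the median of all genes tested. In immature neutrophil-like against myeloid progenitor-like cells every member tested lies at -1.14 or below in both libraries. In chondrocyte-like against all other cells the median member lies at 0.35 in MGJ and -0.13 in MGJ2.

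Of the 82 detected members, 76 had their lowest level in mature neutrophil-like cells in MGJ and 78 in MGJ2. Highest levels were spread over more classes. In MGJ 35 members peaked in NK cell-like, 23 in myeloid progenitor-like, 11 in B cell-like, 6 in pre-B cell-like and 3 in T cell-like cells. In MGJ2 36 peaked in myeloid progenitor-like, 35 in T cell-like and 5 in conventional dendritic-like cells. The lowest class was the same in both libraries for 78 of 82 members, the highest for 26 of 82. All genes were not counted in this way, so these counts are not shown to be particular to the members.

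A second view took the members' own sum as the total, which shows how the mixture of ribosomal protein transcripts differs whatever the size of the sum. Its make-up was similar across classes. Over 78 members with enough UMIs the SD over classes of the log2 share had a median of 0.251, and Rps10 varied least (0.113). The 10 most variable were Rps27 (0.642), Rpl22l1 (0.574), Rpl10a (0.565), Rpl3 (0.536), Rps4x (0.510), Rpsa (0.493), Rps18 (0.493), Rpl12 (0.47), Rps9 (0.462) and Rpl36a (0.430).

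Mature neutrophil-like cells differed most. Past 1.5 fold of the share in all other cells, 9 members were higher and 18 lower in MGJ, and 12 higher and 35 lower in MGJ2. All 9 and all 18 of MGJ were among those of MGJ2. The 9 were Rps27, Rps9, Rps29, Rps25, Rplp2, Rpl10, Rpl35a, Rpl7l1 and Rpl3l, and the 18 included Rpl10a, Rpl3, Rps4x, Rpsa, Rps18 and Rpl12. Rps27 alone made up 4.28% of member UMIs in these cells in MGJ and 7.75% in MGJ2, which was 4.20 and 3.83 times its share in other cells. Rps9 stood at 2.04 and 2.61 times, Rpl10a at 0.36 and 0.19 times, Rpl3 at 0.37 and 0.27 times and Rps18 at 0.45 and 0.20 times. Across 81 members the log2 ratios of the libraries had a Pearson correlation of 0.948, given as a description across genes, which are not independent replicates.

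In the other classes few members stood apart in both libraries, apart from the rare relatives. In B cell-like cells Rps27 was raised, at 2.09 and 1.81 times its share in other cells, and Rplp0, the base of the stalk, was reduced to 0.52 and 0.57 times. In T cell-like cells Rpl13a passed 1.5 fold upward in both. In conventional dendritic-like cells Rps27l was raised, at 1.93 and 3.32 times. In monocyte-like cells Rpl12 (0.66 and 0.54 times) and Rpl22l1 (0.50 and 0.60 times) were reduced. Immature neutrophil-like cells had less Rplp1 (0.42 and 0.58 times) and less Rpl12 (0.54 and 0.65 times), and more Rpl9. Mast cell or basophil-like cells, which reached 50 cells in MGJ2 only, had 6 members higher, among them Rplp1, Rps23 and Rps27, and 13 lower.

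**Figure D4:**
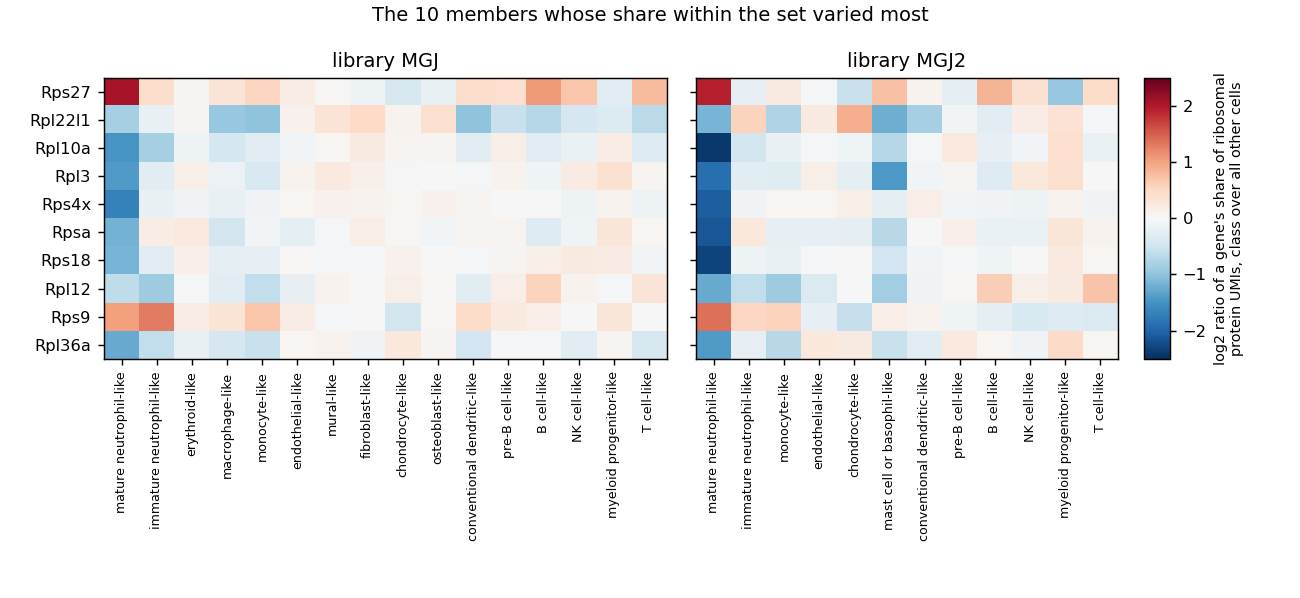
Heat map of the log2 ratio of a member's share of all member UMIs in a class to its share in the other cells of that library, for the 10 most variable members and the classes of each library. Rps27 in mature neutrophil-like cells is highest, at 4.20 and 3.83 times on the linear scale.

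Large subunit transcripts outnumbered small subunit transcripts in every class, but the proportion differed between classes. The ratio of large to small subunit UMIs was 1.26 over all kept cells of MGJ and 1.16 over those of MGJ2. It was lowest at 1.06 in immature neutrophil-like cells of MGJ and at 1.07 in B cell-like and mature neutrophil-like cells of MGJ2. The highest class was mural-like in MGJ (1.31) and chondrocyte-like in MGJ2 (1.29), and chondrocyte-like cells of MGJ had 1.28. The hypertrophic-like cells among the chondrocyte-like ones had 1.34 and 1.32.

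Several members have a close relative that is also a member, and the share of such a pair held by the less common relative differed between classes. Rpl22l1 is a paralog of Rpl22 that can take its place in the ribosome. It held 43.3% of the pair in MGJ and 30.4% in MGJ2 over all kept cells. In MGJ it led in osteoblast-like (55.0%), fibroblast-like (52.0%) and mural-like cells (51.1%) and was low in monocyte-like (27.4%) and conventional dendritic-like cells (26.8%). In chondrocyte-like cells it held 43.3% in MGJ and 43.7% in MGJ2, and in immature neutrophil-like cells 48.3% and 46.5%. In MGJ2 monocyte-like (22.7%), conventional dendritic-like (20.2%) and mast cell or basophil-like cells (17.5%) were low.

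Rps27l held 18.8% of its pair with Rps27 in MGJ and 9.24% in MGJ2. It was highest in conventional dendritic-like cells, with 24.7% and 21.2% at levels of 918 and 1385 CPM, and lowest among lymphoid cells in B cell-like cells, with 2.40% and 2.06%. Chondrocyte-like cells had 20.1% and 12%, and fibroblast-like cells of MGJ 21.4%. The gap between the libraries went with Rps27, which stood at 1672 CPM in chondrocyte-like cells of MGJ and at 2442 CPM in those of MGJ2, beside 421 and 334 CPM of Rps27l.

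Rpl39l, known from spermatogenic cells, was found mainly in skeletal classes. It held 3.16% of its pair with Rpl39 in chondrocyte-like cells of MGJ (112 CPM) and 1.55% in those of MGJ2 (59.2 CPM), and 3.79% in osteoblast-like cells of MGJ (150 CPM). Within the chondrocyte-like cells the hypertrophic-like ones had 4.19% beside 2.87% in the others in MGJ, and 2.0% beside 0.928% in MGJ2. Fibroblast-like and mural-like cells of MGJ had 1.64% and 1.31%. In immune classes Rpl39l was close to 0. In MGJ mature neutrophil-like cells had 28 UMIs and T cell-like cells 2, and in MGJ2 myeloid progenitor-like cells had 9 and mature neutrophil-like cells 0.

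As Col2a1 was found across classes in MGJ, Rpl39l was set beside it. Chondrocyte-like cells had 2.0 Rpl39l UMIs per 1000 Col2a1 UMIs. Macrophage-like (3.19), monocyte-like (3.30), immature (3.49) and mature neutrophil-like cells (3.60) stood somewhat higher, on 5 to 28 Rpl39l UMIs each. Osteoblast-like (10.7), fibroblast-like (25.6) and mural-like cells (113) stood far higher, on 287, 1315 and 44 UMIs, as did endothelial-like cells (13.5) on 12. B cell-like (13.2), NK cell-like (14.2), T cell-like (4.32) and myeloid progenitor-like cells (2.41) had 2 Rpl39l UMIs each, too few to place. In MGJ2 chondrocyte-like cells had 1.31, and T cell-like (40.7), myeloid progenitor-like (50) and monocyte-like cells (11.4) more, on 6 to 9 UMIs each. What part of the Rpl39l UMIs in immune classes was free RNA was not tested.

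Rpl7l1 held 10.0% and 12.4% of its pair with Rpl7 in mature neutrophil-like cells, 1.09% in mast cell or basophil-like cells of MGJ2 and between 1.58% and 4.37% in all other classes. Rpl3l held 9.35% and 31.0% of its pair with Rpl3 in mature neutrophil-like cells, which carried 81 of its 134 UMIs in MGJ and 88 of 174 in MGJ2. Rpl3 was at its lowest there, at 93.9 and 56.9 CPM, so these shares rest on low counts of both. Rps4l was not analysed here.

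**Figure D5:**
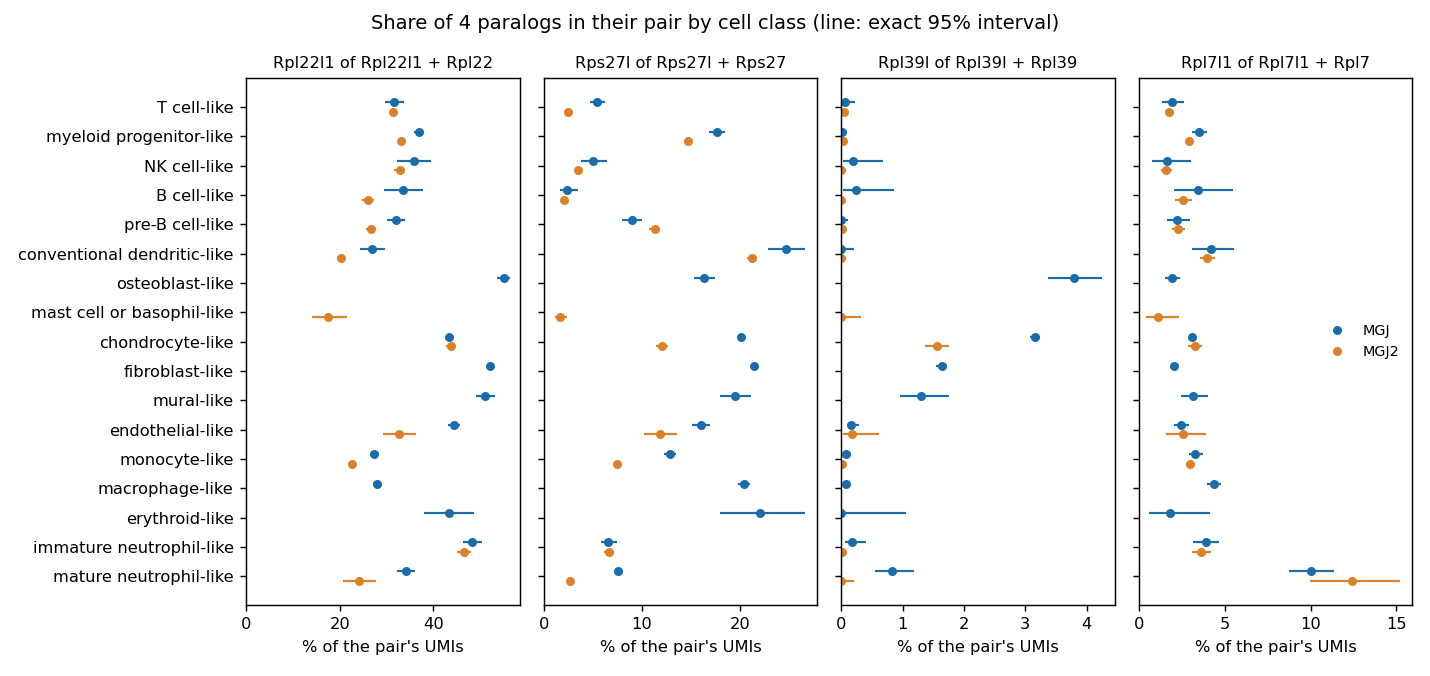
Share (percent) of the UMIs of a pair held by Rpl22l1 (with Rpl22), Rps27l (with Rps27), Rpl39l (with Rpl39) and Rpl7l1 (with Rpl7) in each class, MGJ and MGJ2 side by side, with exact 95% intervals for counting error. Rpl22l1 lies between 43.3% and 55.0% in the chondrocyte-like, osteoblast-like and fibroblast-like cells of MGJ, and Rpl39l is highest in chondrocyte-like and osteoblast-like cells.

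Other genes of protein synthesis were followed over the same classes from lists by function. The 17 elongation factors and further TOP transcripts, among them Eef1a1 and Tpt1, summed to 22480 and 22433 CPM in myeloid progenitor-like cells, 7179 and 7856 CPM in immature and 7534 and 7090 CPM in mature neutrophil-like cells. All 17 were lower past 1.5 fold at the progenitor to immature step in both libraries, where 60.5% and 59.0% of all genes were lower. At the step to mature cells 9 of 17 were lower in MGJ and 13 of 17 in MGJ2, beside 35.3% and 51.4% of all genes. The members' sum was 12.1 and 12 times that of the elongation list in progenitor-like cells, 8.65 and 9.30 times in immature and 4.14 and 4.04 times in mature cells. Gene by gene the progenitor to immature step was alike in both, with median log2 ratios of -2.15 and -1.81 for the list beside -2.18 and -1.94 for the members. At the step to mature cells the medians were -0.59 and -1.24 beside -1.12 and -1.63.

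Genes of ribosome biogenesis, such as Fbl and Ncl, stood at 1408 and 1669 CPM in progenitor-like cells, 237 and 331 CPM in immature and 323 and 241 CPM in mature neutrophil-like cells. All that were tested, 16 in MGJ and 20 in MGJ2, were lower at the progenitor to immature step, where 60.5% and 59.0% of all genes were lower. Of the mitochondrial ribosomal proteins 71 of 74 and 73 of 77 were lower there, beside the same shares of all genes.

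The sum of the initiation factors was 6577 and 6129 CPM in progenitor-like, 5531 and 5361 CPM in immature and 7373 and 8525 CPM in mature neutrophil-like cells. At the progenitor to immature step 14 of 17 were lower past 1.5 fold in each library, beside 60.5% and 59.0% of all genes. The median log2 ratios of the list were -1.62 and -1.37, while Eif1, which guides start codon choice, was higher in both libraries. At the step to mature cells 5 of 17 were higher in each library and 5 and 10 lower, near the 32.2% and 25.5% higher and 35.3% and 51.4% lower of all genes. Eif3a, Eif4a1, Eif4e and Eif5 were higher in both. In hypertrophic-like against other chondrocyte-like cells 15 of the 20 biogenesis genes tested were lower in MGJ (median log2 ratio -0.78) and 5 of 17 in MGJ2 (-0.34), beside 19.5% and 17.5% of all genes and the 3 and 1 members named above.

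The libraries also differed in the mixture within every shared class. Over 78 members and the 11 classes found in both, 13 members had a higher share of member UMIs in MGJ2 in every class and 28 a lower one. Other genes were not counted in this way, so these counts are not shown to be particular to the members. As shares of 1 sum, higher values in some members lower those of others. Some of the shared classes drew on different clusters in each library. The median ratio over classes of MGJ2 to MGJ was 1.6 for Rps28, 1.58 for Rpl37a (from 1.51 to 1.78), 1.56 for Rps27, 1.47 for Rps29 and Rpl38 and 1.37 for Rps21. At the low end stood Rpl15 (0.710), Rpl29 (0.720), Rps3 (0.736) and Rpl18 (0.757). Whether the day, the animals or the library preparation lies behind this cannot be told apart, and differences between the libraries in Rps27, Rps29 or Rpl37a stand beside it.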

How the data were processed

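Callus cells were captured with the 10x 3′ chemistry. The submitters' processing notes name Cell Ranger, Seurat and GRCm38, and the file headers Cell Ranger 4.0.0. The annotation version is not given in the sources used here. The deposited files hold raw UMI counts per gene and barcode, which the authors filtered to cell barcodes and did not normalize. Ambient RNA was not removed.

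From these counts, barcodes with at least 200 genes and at most 20% mitochondrial UMIs were kept. Scrublet (scanpy 1.11.5, expected rate 0.8% per 1000 barcodes) set a threshold that marked 0 barcodes in MGJ, so the threshold of MGJ2 was used for both, which marked 3.63% and 2.86%, fewer than the expected 10.8% and 6.24%. Both libraries were clustered jointly (2000 variable genes without members, 30 components, 15 neighbours, Leiden resolution 1) and clusters named "X-like" from marker lists of cell classes, with 1 further list for hypertrophic cells. Chondrocyte-like and macrophage-like cells were clustered again, and sub-clusters of 865 and 69 cells in all were set aside. Their leading genes held more listed markers of another class than of their own. In most of these sub-clusters this was 1 marker against 0. Naming thresholds and this step were set after leading genes were seen.

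CPM ratios were computed for genes with at least 50 UMIs in both sets together and called past 1.5 fold. Intervals were Clopper-Pearson for shares, exact Poisson for counts and conditional binomial for ratios. The ratio script was checked on simulated counts. Named were the highest and lowest 5 members, the 10 most variable, those past 1.5 fold in both libraries in a contrast, the relatives, the stalk genes and Rpsa. Other members were chosen after their values were seen, as were the immature neutrophil against progenitor contrast, the comparison of mixtures between libraries and 2 alternatives. The members and lists were chosen with earlier results of these data known. Neither library was assigned to a group. Some items that the naming rule covers are not reported here.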

Additional observations from a re-analysis of the deposited data

Results flagged for a closer look

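Members were also detected in data outside the comparisons. The barcodes removed for few genes or a high mitochondrial share, 835 in MGJ and 203 in MGJ2, held 5.25% and 4.83% of their UMIs in members, where a count of 0 would allow only 0.000208% and 0.00073%. The barcodes called doublets held 16.2% and 17.0%.

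The 5 -ps pseudogene entries that the rule left out summed to 91.1 CPM in MGJ and 106 CPM in MGJ2, where a count of 0 would allow 0.024 and 0.052 CPM. Rpl10-ps3 had 45.2 and 54.8 CPM, Rpl9-ps6 35.1 and 40.5 CPM and Rpl36a-ps1 10.8 and 10.3 CPM, while Rpl9-ps1 had 0.135 and 0.189 CPM and Rpl36-ps4 no UMI. Rpl9-ps6 held 1.45% and 1.55% of its sum with Rpl9.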

How the results depend on the processing

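The ratio of chondrocyte-like to all other cells moved by more than its counting interval under most alternatives, here with MGJ and then MGJ2. It was 1.23 and 0.910 with at least 500 genes per barcode, 1.25 and 0.938 with at most 10% mitochondrial UMIs, 1.25 and 0.908 without mitochondrial UMIs in the total, 1.28 and 0.988 without the 20 most abundant non-member genes, 1.79 and 1.11 with every cell weighted equally, 1.25 and 0.907 at resolution 0.5 and 1.30 and 0.927 at resolution 2. In MGJ alone keeping doublet calls gave 1.16. With other cells chosen after the data were seen it was 1.08 and 0.768 without neutrophil clusters and 1.03 and 1.14 against stromal and vascular classes only. It thus turned direction in MGJ2 with equal weights and with stromal and vascular classes, and the cause was not tested.

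The place of chondrocyte-like cells was 7 of 15 and 10 with at least 500 genes, 9 and 8 with at most 10% mitochondrial UMIs, 7 of 15 and 7 of 11 at resolution 0.5, 9 of 17 and 10 of 14 at resolution 2, and 9 in MGJ without mitochondrial UMIs. In MGJ2 it was 8 without the 20 genes and with equal weights, and 7 of 10 without clusters that had no leading marker of their own. The number of members past 1.5 fold of their share in these cells was 2 in MGJ under every alternative and 3 to 5 in MGJ2.

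Of 298 class shares recomputed, 9 moved by more than 1.5 times. They were the shares without the 20 genes in erythroid-like (20.4%), immature (13.3%) and mature neutrophil-like cells (5.57%) of MGJ and immature neutrophil-like cells of MGJ2 (13.1%), erythroid-like cells with equal weights (3.62%), myeloid progenitor-like cells with at least 500 genes (14.3% and 17.0%), and immature neutrophil-like cells of MGJ2 with at least 500 genes (4.52%) and at resolution 2 (4.54%). No paired analysis was possible because the labels give neither groups nor replicate numbers. Rpl3l and Rpl39l in immune cells are limited by depth, and with 1 library of each kind the spread between animals is unknown.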
